A study of Caenorhabditis elegans with 2 samples.

Results

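HLH-6 regions were examined at 10 genes of the pharyngeal cuticle, abu-6, abu-7, abu-8, abu-10, abu-11, abu-12, abu-13, abu-14, pqn-54 and pqn-71, among 19973 nuclear protein-coding genes. They were taken by name from a fixed list, and all 10 were found in the Ensembl annotation. The data are the regions found by anti-GFP chromatin immunoprecipitation and sequencing (ChIP-seq) in whole Caenorhabditis elegans hermaphrodites of strain RW10702. The transgenic line carries HLH-6, a transcription factor of the bHLH (basic helix-loop-helix) class, fused at its C-terminus to GFP and FLAG. The single group is late embryos taken 3.5 hours after egg bleaching, in 2 biological replicates, and no other group was analysed here, so no difference between conditions was measured. Chromatin came from the whole animal, in which the pharynx is 1 organ among many, and signal confined to few cells cannot be told apart from weak signal in many.

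The pharyngeal cuticle is the extracellular lining of the feeding tube. It holds chitin, is made by cells of the pharynx before hatching, and is replaced at every larval moult. The abu genes were named for being activated when the unfolded protein response is blocked, and the pqn genes for prion-like stretches rich in glutamine (Q) and asparagine (N). HLH-6 is known for its role in the pharyngeal glands.

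These names were set against the coding sequences. Glutamine codons (CAA and CAG) made up 14.4% (abu-13) to 29.9% (abu-6) of the codons of the 10 genes, with a median of 27.2%, against a median of 3.66% over all coding genes. Each of the 10 had more than at least 99.5% of coding genes. Cysteine codons were also frequent in 8 of them, between 11.6% in abu-11 and 17.2% in abu-14, against a median of 1.82% over all coding genes. The 2 exceptions were abu-12, with no cysteine codon (0%), and abu-13, with 1.22%. Asparagine codons had a median of 5.47% against 4.70% over all coding genes, and only abu-13, abu-14 and pqn-71, at 9.33%, 9.92% and 8.79%, stood above 97.2% of genes or more. Both exceptions are also the longest of the genes, at 7165 bp (abu-12) and 4011 bp (abu-13), where the other 8 run from 1215 to 2050 bp.

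For each gene the window examined ran from 2000 bp upstream of the transcription start site (TSS) to the gene end, and a region was counted when it overlapped the window by at least 1 bp. All coordinates are ce11, and positions are given from the TSS along the gene's strand, negative upstream. The optimal list of 912 regions (911 distinct intervals) lies wholly among the 912 strongest pooled regions, down to a signal value of 85.6. The signal value is the authors' score for a region, without a stated scale, and it is used here only to rank and describe regions. The pooled list and the list of each replicate are far longer, at 30000 regions each, and serve here to show weak regions that were not called. The pooled values run from 22.5 to 678 with a median of 33.9, and rank 1 is the strongest region of a list. No list gives read counts, so the sequencing depth is unknown.

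Of the 10 genes, 2 had an optimal region in the window, pqn-71 and abu-12, against 5.20% of all coding genes. Both regions reached into the 2000 bp upstream, where 3.31% of all coding genes had one. In the gene itself only abu-12 had one, against 2.85% of all coding genes. In the pooled list, 9 of the 10 had a region in the window, against 65.9% of all coding genes, and only abu-6 had none in any of the 4 lists. The strongest pooled region per window had a median signal value of 59.8 over the 10 genes, against 31.6 over all coding genes, with a gene without a region set to 0. The windows of the 10 were shorter, with a median of 3587 bp against 4027 bp, but richer in G and C, as described further on. With 10 genes, and with genes chosen when results of these data were known, these shares are descriptions without a test.

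**Figure D1:**
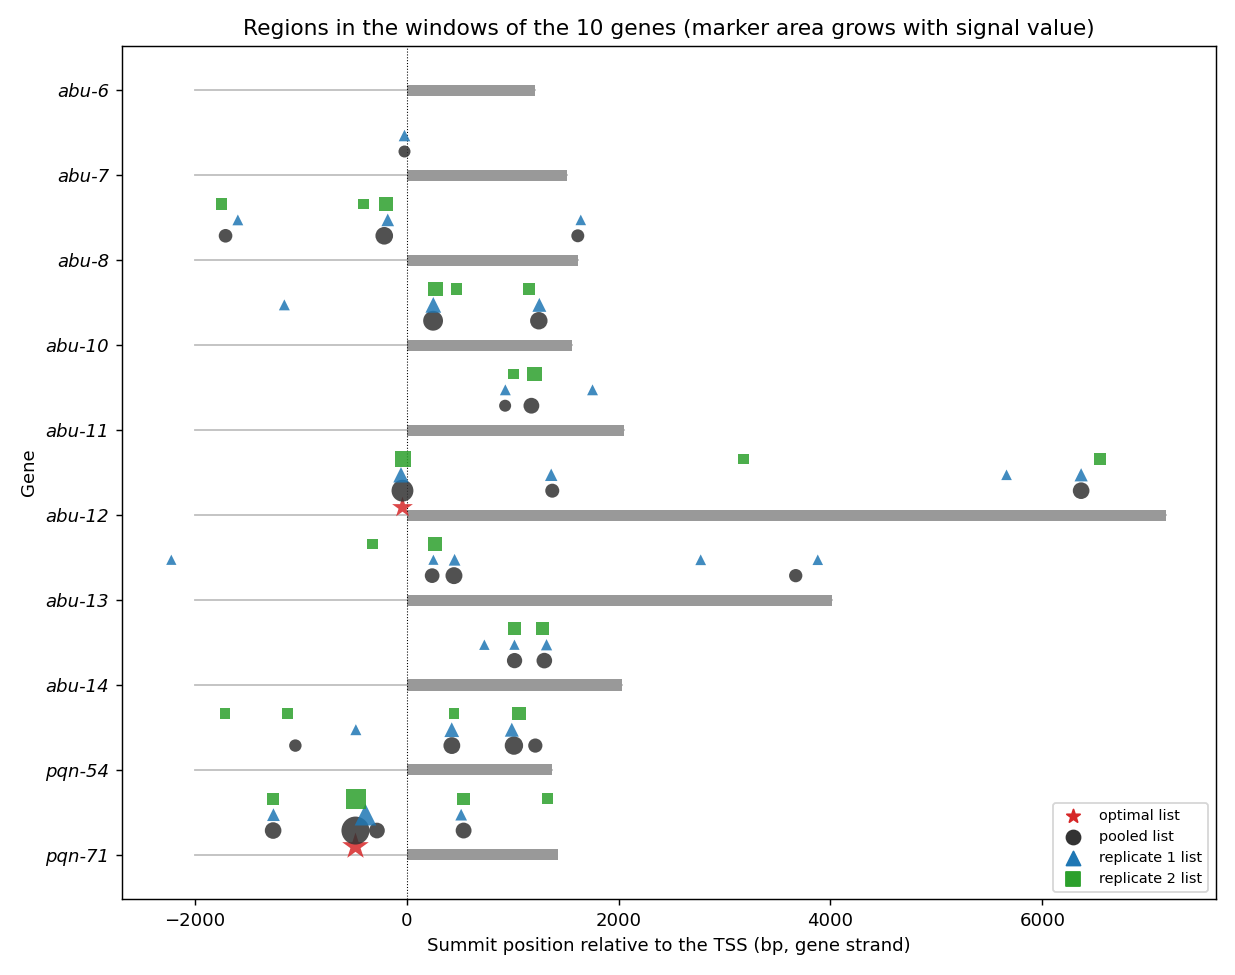
Summit position (bp from the TSS, along the gene's strand) of each region that overlaps the window of a gene, 1 row per gene. The thin line is the 2000 bp upstream, the bar is the gene, and the marker's shape and colour give the list and its area the authors' signal value. The 2 optimal regions lie upstream of or at the TSS (abu-12, pqn-71), and abu-6 has no region. In abu-10, abu-11, abu-13, abu-14 and pqn-54 the strongest markers lie inside the gene.

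The strongest region of the set belonged to pqn-71 (WBGene00004153, chromosome V 15465677 to 15467100, plus strand), at chrV:15464963-15465422. Its signal value was 174 in the pooled and optimal lists (rank 117), 99.7 in replicate 1 (rank 93) and 80.6 in replicate 2 (rank 158). It was thus high in both replicates and above the strongest region of 99.3% of coding genes, those without a region included. The pooled summit lay at -484 bp from the pqn-71 TSS in intergenic sequence, between 2 tRNA genes that are transcribed towards each other. tRNA genes are read by RNA polymerase III from promoters inside the gene. T23F1.t1, a lysine tRNA gene, spans 15465086 to 15465158 on the plus strand, and T23F1.t2, a proline tRNA gene, spans 15465225 to 15465296 on the minus strand. The sequence across both is shown because the region is centred on it, read on the plus strand with the tRNA genes in capitals. All sequences printed are from the RefSeq genome of assembly WBcel235, which has the coordinates of ce11.
tRNA pair upstream of pqn-71, chrV:15465086-15465296: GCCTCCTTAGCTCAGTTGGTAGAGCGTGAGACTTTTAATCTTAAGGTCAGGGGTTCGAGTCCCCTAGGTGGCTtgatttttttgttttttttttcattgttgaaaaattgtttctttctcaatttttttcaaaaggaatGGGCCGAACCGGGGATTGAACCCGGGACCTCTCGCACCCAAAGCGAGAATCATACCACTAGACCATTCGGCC
The summit was 32 bp from T23F1.t2 in the pooled list, 24 bp from it in replicate 2 and inside it in replicate 1. Of all 912 optimal regions, 223 (24.5%) had a short RNA gene (tRNA, snoRNA or snRNA) at most 200 bp from the summit, as did 1 of the 2 at the cuticle genes. The same summit lies at -691 bp from the TSS of rocf-1, which is transcribed away from pqn-71, so the region cannot be assigned to either coding gene or to the tRNA genes from its position. Words of 36 bases that occur once in the genome made up 76.0% of this region, against a median of 100% over the optimal regions. The E-box CANNTG, the letters bound by bHLH factors, did not occur within 50 bp of the pooled summit on either strand, and the GC content there was 34.7%, against a median of 52.5% over optimal summits. Further from that summit, the printed letters of T23F1.t1 hold an E-box, CAGTTG. The replicate 1 summit of the same region lies inside T23F1.t2. Within 50 bp of it an E-box (CAATTG) and GAGAGA did occur, neither of them within the printed letters of that gene, and the GC content was 51.5%. Whether repeated tRNA sequence or the tRNA genes themselves bear on the value was not tested.

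3 weaker pooled regions lay in the pqn-71 window. One of signal value 48.7 (rank 6143) had its summit 537 bp inside the gene, in coding sequence, and was present in replicate 1 (21.7, rank 10801) and replicate 2 (25.6, rank 7606). One of 54.3 (rank 4460), also present in replicate 1 (27.6, rank 5350) and replicate 2 (21.7, rank 11751), had its summit in the coding sequence of rocf-1, 86 bp from that gene's TSS. The last, of 47.6 (rank 6565), overlapped the strong region and had its summit 100 bp from T23F1.t2. The gene body of pqn-71 thus ranked far below the tRNA pair in both replicates.

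abu-12 (WBGene00004127, chromosome X 450446 to 457610, minus strand) held the other optimal region and the only one of the set at a TSS away from short RNA genes. The region chrX:457420-457879 had a signal value of 102 in the pooled and optimal lists (rank 491), 45.4 in replicate 1 (rank 903) and 50.3 in replicate 2 (rank 701). Its summit lay at -40 bp from the TSS in the pooled list, at -54 bp in replicate 1 and at -37 bp in replicate 2. The value exceeded the strongest region of 97.1% of coding genes, but its −log10 q-value was 2.29, and among the 912 strongest pooled regions by that value abu-12 had none while abu-10 had one. The nearest tRNA, snoRNA or snRNA gene was 30165 bp away, and the nearest other coding TSS was that of aagr-4, an alpha-glucosidase-related gene, from which the summit lies at -3001 bp. The summit base with 50 bp on either side is shown, on the gene's strand, because it is the only optimal summit of the set that stands at a gene start. Its capitals mark the single GAGAGA, here read as its reverse complement.
abu-12 start, chrX:457600-457700, minus strand: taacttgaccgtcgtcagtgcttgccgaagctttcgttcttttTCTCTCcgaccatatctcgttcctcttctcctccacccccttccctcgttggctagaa
The E-box CANNTG was not among these letters on either strand, whereas 33.6% of all optimal summits and 36.4% of all pooled summits had one. GAGAGA or its reverse complement was present in 20.5% of optimal summits. The window is C- and T-rich on this strand, with a GC content of 51.5%, near the median of 52.5% over optimal summits.

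The long body of abu-12 carried 2 further pooled regions, both with an intronic summit. One near the gene end (summit 6366 bp from the TSS) had a signal value of 54.6 (rank 4375), with 30.6 in replicate 1 (rank 3757) and, with its summit at 6543 bp, 26.2 in replicate 2 (rank 7161). The other, 1374 bp from the TSS, had 35.6 (rank 13534) and was matched in replicate 1 (25.8, rank 6629) but by no region of replicate 2. The start of the gene therefore ranked well above its body in both replicates.

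**Figure D2:**
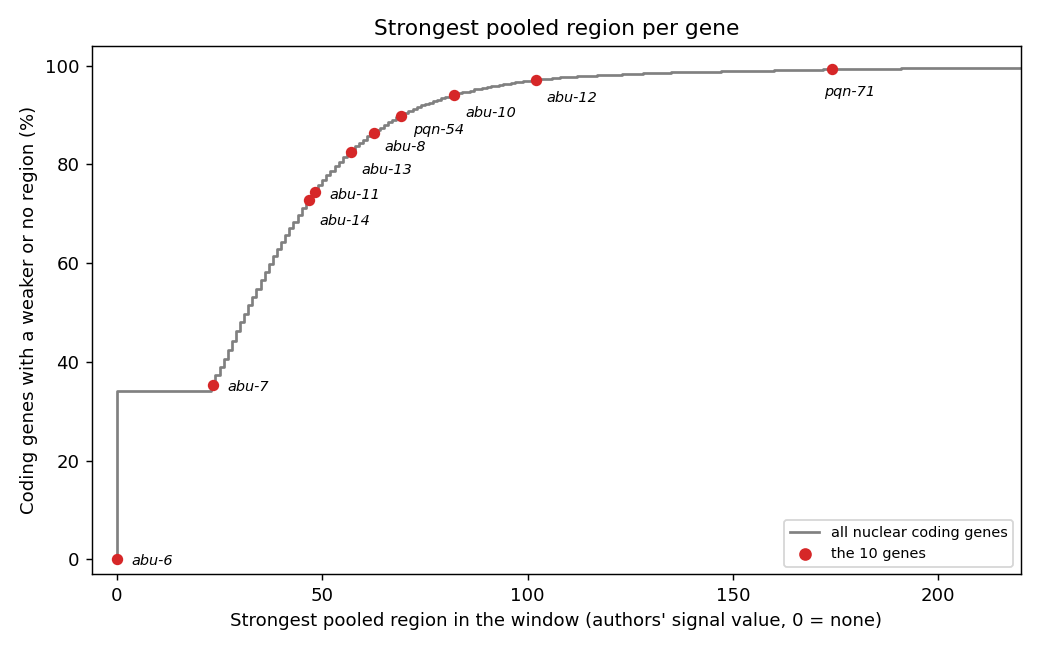
Share of all nuclear coding genes (y axis, percent) whose strongest pooled region in the window is weaker than the signal value on the x axis or that have none. Red points are the 10 genes. They run from abu-6 without a region through abu-7 at 23.3 to abu-12 at 102 and pqn-71 at 174.

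In 6 of the 10 genes a pooled summit lay in the gene's own coding sequence: abu-10, abu-11, abu-13, abu-14, pqn-54 and pqn-71, against 32.5% of all coding genes. Anywhere in the gene, a pooled summit was present in 7 of 10 (the same 6 and abu-12), against 45.4% of all coding genes. By overlap of the region rather than by summit, 9 of 10 had a pooled region in the gene and 5 of 10 upstream, against 51.0% and 49.4% of all coding genes. Of the 24 pooled regions in the 10 windows, 14 had the summit in coding sequence (58.3%), 11 in a listed gene and 3 in a neighbour, against 40.8% of the 26324 pooled regions in the window of any coding gene. The 11 include overlapping pairs in abu-11, abu-14 and pqn-54, so they are fewer separate sites. The share of coding sequence in each window is not given here. None of the 11 in listed genes reached the optimal list, and the summits of both optimal regions were intergenic. Over the whole genome, 109 optimal regions had the summit in coding sequence, against 10742 pooled regions. None among 11 thus says little about these genes. Intergenic sequence held 379 of all 912 optimal summits (41.6%), more than any other kind of place.

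abu-10 (WBGene00000033, chromosome X 3798182 to 3799741, plus strand) came nearest to the optimal list with a summit in coding sequence. Its region chrX:3798201-3798660, with the summit 249 bp from the TSS in coding sequence, had a signal value of 82.2 (rank 1061), just under the lowest optimal value of 85.6, and a −log10 q-value of 2.37, inside the optimal range of 2.15 to 2.63. It had 47.6 in replicate 1 (rank 774) and 39.7 in replicate 2 (rank 1735). Replicate 1 alone would thus place it among its 912 strongest regions and replicate 2 would not. A second region near the gene's end (summit 1247 bp from the TSS, coding sequence) had 61.1 (rank 3059), with 35.1 in replicate 1 (rank 2400) but 19.7 in replicate 2 (rank 14823), there with an intronic summit. The upstream 2000 bp held a region in replicate 1 alone, of rank 17597, with its summit in the ncRNA gene F35A5.12.

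pqn-54 (WBGene00004139, chromosome V 1464990 to 1466360, plus strand) had 3 pooled summits in its coding sequence, at 426, 1012 and 1214 bp from the TSS. The strongest, chrV:1465772-1466231, had a signal value of 69.1 (rank 1966), with 35.5 in replicate 1 (rank 2304) and 31.1 in replicate 2 (rank 4244). The region at 426 bp had 56.0 (rank 4035) and differed between the replicates, with 40.6 in replicate 1 (rank 1392) and 15.9 in replicate 2 (rank 22180). The region at 1214 bp (37.0) overlaps the strongest one. Upstream, a weak region of 25.8 (rank 24663) had its summit in the coding sequence of fpn-1.2, a ferroportin-related gene on the opposite strand.

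abu-13 (WBGene00004133, chromosome III 6941888 to 6945898, minus strand) had its strongest region 446 bp from the TSS, at chrIII:6945222-6945681, in coding sequence. Its signal value was 56.9 (rank 3807), with 21.8 in replicate 1 (rank 10546, summit at 452 bp). An overlapping pooled region of 40.3 (rank 10183) had its summit in annotated UTR, 240 bp from the TSS. The only overlapping region of replicate 2, of 33.0 (rank 3442), had its summit at 267 bp, beside this second one. The weakest, 3672 bp from the TSS and intronic, had 31.0 (rank 17925). The neighbour upstream is let-711, which encodes the scaffold of the CCR4-NOT deadenylase complex and is transcribed in the opposite direction.

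abu-11 (WBGene00000034, chromosome II 192509 to 194558, minus strand) and abu-14 (WBGene00004174, chromosome II 9225186 to 9227214, minus strand) had regions only inside the gene. In abu-11 the strongest, chrII:193151-193610, had a signal value of 48.2 (rank 6307) and its summit 1177 bp from the TSS. It stood at 40.3 in replicate 2 (rank 1645), whereas replicate 1 had 17.4 (rank 17998) with the summit at 931 bp, beside the weaker pooled region at 929 bp (23.3, rank 28543). The abu-11 site at 1177 bp was thus strong in replicate 2 alone. The nearest other coding TSS is that of chs-2, the chitin synthase gene of the pharynx, from which the summit lies at -3604 bp. In abu-14 the 2 regions, at 1299 and 1018 bp from the TSS, had 46.8 (rank 6844) and 44.4 (rank 7998), and the overlapping regions had best ranks of 14361 in replicate 1 and 6123 in replicate 2.

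The sequences at 3 of these summits are shown on the gene's strand, since in these genes the strongest pooled summit lies in coding sequence and holds an E-box, with CANNTG in capitals. The letters CAA and CAG, which also spell glutamine codons, recur in them.
abu-10, chrX:3798381-3798481, plus strand: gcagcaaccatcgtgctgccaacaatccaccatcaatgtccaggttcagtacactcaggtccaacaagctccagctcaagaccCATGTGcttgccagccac
abu-11, chrII:193331-193431, minus strand: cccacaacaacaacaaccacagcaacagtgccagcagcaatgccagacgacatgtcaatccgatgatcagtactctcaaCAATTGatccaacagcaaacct
abu-13, chrIII:6945402-6945502, minus strand: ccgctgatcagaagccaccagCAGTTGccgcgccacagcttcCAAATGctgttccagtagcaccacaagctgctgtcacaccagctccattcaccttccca
abu-10 and abu-11 have 1 E-box each in the printed letters, and abu-13 has 2. Over all 11 pooled summits in coding sequence of the listed genes, 4 had an E-box and 7 had none, and over all pooled summits in coding sequence 43.5% had one. The FoxA-type sequences TGTTTAC and TGTTTGC, the kind bound by the pharynx regulator PHA-4, were sought on both strands and occurred at none of the 24 pooled summits (0.917% and 1.97% of all pooled summits).

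GC content was high at the coding-sequence summits of the listed genes. The 11 summits had a GC content within 50 bp of 47.5% to 59.4%, with a median of 55.4%, against a median of 46.5% over all pooled summits in coding sequence. The longest coding sequences of the genes with such a summit themselves had between 45.4% (abu-13) and 55.1% (pqn-54). Whole genes of the set, introns included, had a median GC content of 46.4% against 36.4% over all coding genes. Among all 15863 coding genes with a GC content under 40%, 26.9% had a pooled summit in their coding sequence and the median strongest value was 29.1. Among the 3006 with 40 to 45% the share was 55.0% and the median 41.1, and among the 1104 with 45% or more the share was 52.2% and the median 44.6. Of the listed genes, 8 have 40% or more, and 5 of these 8 had such a summit, against 54.2% of all 4110 coding genes with 40% or more. They were 3 of 3 with 40 to 45% but only 2 of 5 with 45% or more, where abu-6, abu-7 and abu-8 had none. Of the 2 below 40%, abu-13 had one and abu-12 had none. The part of GC content in the regions was not tested.

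abu-6, abu-7 and abu-8 lie on chromosome V between 5160678 and 5194608, all on the minus strand, and are near-copies of each other. abu-6 (WBGene00000029, 5160678 to 5161892) had no region in any list. abu-7 (WBGene00000030, 5163270 to 5164782) had a single pooled region of 23.3 (rank 28606), with its summit at -26 bp from the TSS, 20.9 in replicate 1 (rank 11870) and none in replicate 2. abu-8 (WBGene00000031, 5192995 to 5194608) had its strongest region at -212 bp from the TSS, chrV:5194590-5195049, with a signal value of 62.6 (rank 2813), 27.0 in replicate 1 (rank 5805) and 35.6 in replicate 2 (rank 2602). None of the 3 had a pooled summit inside the gene. The summit at abu-8 is intergenic, with a GC content of 48.5%, and its sequence is shown because it is the strongest upstream region of the family away from short RNA genes after that of abu-12.
abu-8 upstream, chrV:5194770-5194870, minus strand, without an E-box and so without capitals: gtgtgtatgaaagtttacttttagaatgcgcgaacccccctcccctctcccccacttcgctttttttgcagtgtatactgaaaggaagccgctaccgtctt
Another pooled region in the abu-8 window (33.1, rank 15815) had its summit in the coding sequence of Y47A7.2, and the weakest (28.9, rank 20426) just beyond the gene's 3′ end.

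The 3 copies differ from the other 7 genes in the share of 36-base words that occur once in the genome. This word length was a setting and was not taken from the reads. In a global alignment of the coding sequences, abu-6 and abu-7 were identical over 97.8% of the shorter one, abu-7 and abu-8 over 96.7%, and abu-6 and abu-8 over 96.1%. That measure does not count gaps, and it was 74.9% even for abu-12 and pqn-71, which share no 36-base word. Over all aligned columns, gaps included, the 3 pairs had 86.6%, 95.1% and 83.8% in the same order. pqn-54 came next, with 82.0% to 84.2% of the shorter sequence to each of them. Over aligned columns it had 80.4% to abu-6, 72.7% to abu-7 and 72.6% to abu-8. Words of 36 bases found once in the genome made up 31.6% of abu-6, 24.9% of abu-7 and 54.5% of abu-8, against at least 98.1% in each of the other 7 genes. The upstream 2000 bp were unique at 100% in abu-7 and abu-8 and at 77.6% in abu-6, whose upstream sequence reaches into abu-7. Over all 971 coding genes with under 60% unique words, 12.5% had a pooled summit in the gene. Among the 3033 with 60 to under 95% the share was 56.2%, and among the 15946 with 95% or more it was 45.5%. The share thus did not rise steadily with uniqueness. Overlap of the region, which abu-7 and abu-8 have at the gene's edge and abu-6 does not, was also counted. From the least to the most unique class, the shares by overlap were 15.7%, 59.9% and 51.4%. The authors' treatment of reads with several matches is not given in the sources used here, so the lack of summits inside these 3 genes cannot be told apart from reads that could not be placed.

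**Figure D3:**
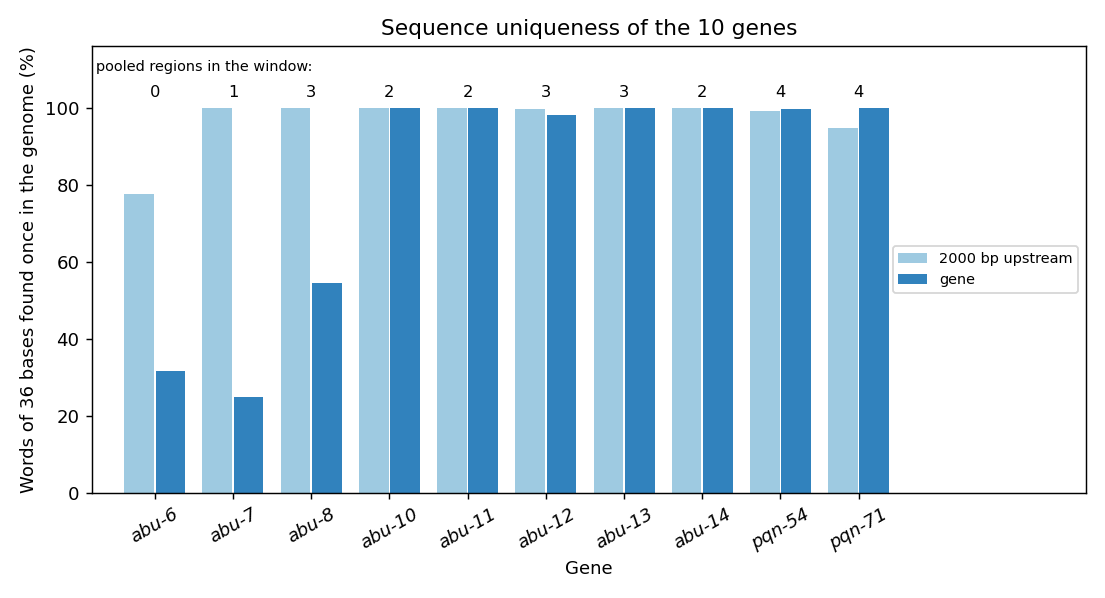
Share of 36-base words that occur once in the nuclear genome (y axis, percent), in the 2000 bp upstream (light bars) and in the gene (dark bars), for each of the 10 genes. Numbers above the bars count the pooled regions in the window. abu-6, abu-7 and abu-8 stand at 31.6%, 24.9% and 54.5% in the gene, and the other 7 at 98.1% or more.

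The replicates can be compared by rank, since both lists hold 30000 regions. Among the 912 strongest regions of replicate 1, 3 of the 10 genes had one in the window (abu-10, abu-12 and pqn-71; 5.13% of all coding genes). Among those of replicate 2, 2 had one (abu-12 and pqn-71; 5.14% of all coding genes). A region shared by both was found at abu-12 and pqn-71 only, against 2.96% of all coding genes. In the full lists, 8 of the 10 genes had a shared region, all but abu-6 and abu-7, against 48.6% of all coding genes. Of the 24 pooled regions in the windows, 19 overlapped a region of each replicate, where 1 replicate region may overlap 2 pooled ones (79.2%, against 60.6% of all pooled regions). The ratio of the higher to the lower rank had a median of 2.23 over these 19 and of 1.95 over the 18188 such pooled regions. The widest gaps were at the pqn-54 region 426 bp from the TSS (15.9), at abu-11 (10.9) and at the second region of abu-10 (6.18), the narrowest at abu-8 (1.23, its upstream region in Y47A7.2) and at the abu-12 start (1.29). With 2 replicates there is no further measure of error, and only the regions of pqn-71 and abu-12 were among the 912 strongest of both.

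**Figure D4:**
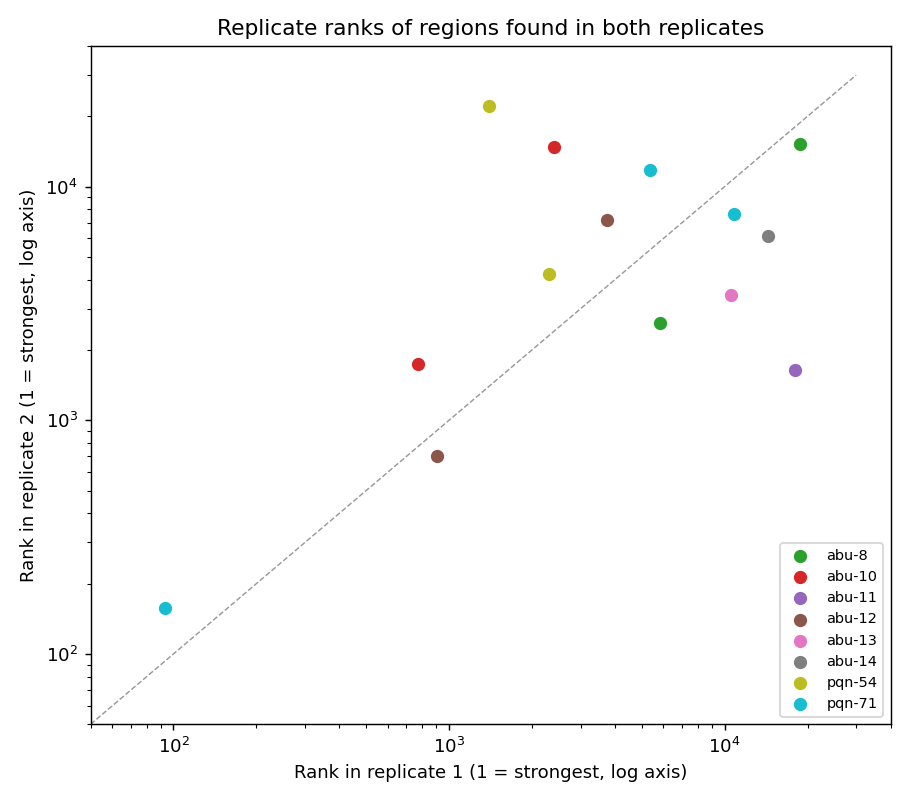
Rank of regions in replicate 1 (x axis) and replicate 2 (y axis), both log axes with 1 as the strongest, for pooled regions of the genes that overlap a region of each replicate (the best rank where several overlap, and 1 point where 2 pooled regions share them). The dashed line marks equal ranks. The pqn-71 region beside the tRNA genes (93 and 158) stands apart at low ranks, the abu-12 start (903 and 701) lies near the line, and abu-11 (17998 and 1645) lies far from the line.

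Genes with related names or related roles, chosen by symbol, were set beside the 10. Of the 60 other abu and pqn genes, 6 had an optimal region in the window, all of them pqn genes, and none of the 6 other abu genes had one. These regions lay in introns of pqn-65 (signal value 125), pqn-27 (96.1), pqn-87 (96.6) and pqn-84 (99.7), in the coding sequence of pqn-41 (103) and, upstream of pqn-21, in a tRNA gene within an intron of cye-1 (265), the cyclin E gene. The pqn symbol is given for protein composition and not for a tissue, and these regions were, other than that of pqn-41, outside coding sequence. Of 31 idpa, idpb, idpc and idpp genes, named for intrinsically disordered proteins, 3 had an optimal region (9.68%): idpc-2 (91.0), idpc-3 (102) and idpc-4 (94.4). All 3 summits lay in the gene's own coding sequence, 914, 508 and 443 bp from the TSS. None of 29 fipr genes (fungus-induced protein related), none of 12 nspb genes (a nematode-specific peptide family), and neither chitin synthase gene (chs-1 of the eggshell and chs-2 of the pharynx) had one. Beside the 5.20% of all coding genes, a lack of optimal regions in lists this short says little about them. In the pooled list, where 65.9% of all coding genes had a region, 2 of the 6 other abu genes had one (33.3%). So did 81.5% of the 54 other pqn genes, 74.2% of idp genes, 6 of 12 nspb genes, 20.7% of fipr genes and 2 of 2 chitin synthase genes.

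By strongest rank in the pooled and both replicate lists, over 10836 coding genes with a region in all 3, the genes most like abu-12 were let-504 and srrt-1. These share 1 region of signal value 102, with pooled rank 494 and replicate ranks of 897 and 646, at a distance of 0.036 in log10 rank. Most like pqn-71 was rocf-1, which has the same region in its window, and then C01C4.3 (182, pooled rank 103, replicate ranks 103 and 136, distance 0.096).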

How the data were processed

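The authors deposited regions of HLH-6-eGFP ChIP-seq for 2 biological replicates in the narrowPeak layout. According to the README texts deposited with them, each replicate list and the pooled list came from alignments and a control, and the optimal list was made from them by IDR (irreproducible discovery rate). The signal value of a region is a score deposited by the authors, and each region also has a deposited −log10 q-value, which ranked regions in 1 alternative only. The sources used here do not give the aligner, peak caller, read filters or IDR threshold. The control was not analysed here, and the ce10 lists were not used.

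The ce11 lists were set against Ensembl release 115 (WBcel235), and sequences, sequence uniqueness and tRNA names came from the RefSeq WBcel235 genome and annotation. All region ends lay within its chromosomes. Overlaps, codons, motifs and 36-base words were computed in Python 3.11.15 with numpy 2.4.6 and pandas 2.3.3, coding sequences aligned with Biopython 1.88, and figures drawn with matplotlib 3.10.9. The overlap code was tested on simulated data. The longest coding sequence of each gene was used, and the TSS is the 5′ end of the gene. The classes of genes by GC content and by unique words were set after the regions had been seen.

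The genes and gene lists were chosen with earlier results of these data known. With a single group and 2 replicates no test was made: member counts stand beside the share of all 19973 nuclear coding genes. Named genes are the 10 members, coding and short RNA genes nearest to their regions, genes of the other lists with an optimal region, and the 2 genes most like each member with one, and neighbours of other regions were named after their values were seen. Alternatives changed the list, the window, the overlap, the ranking column and the distance to short RNA genes.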

Additional observations from a re-analysis of the deposited data

How the results depend on the processing

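Of 30 alternatives, 24 left the count they concern within 1.5 times. This limit is loose for counts this small, since a change from 2 to 3 genes, or an exchange of 1 gene for another, stays within it. The optimal count of 2 genes became 1 among the 456 strongest optimal regions, where pqn-71 stayed, 1 in the gene alone (abu-12), and 1 without regions near short RNA genes (abu-12). With an optimal region upstream, 1 gene (pqn-71) was counted among those 456, and 1 (pqn-71) when the pooled list was ranked by −log10 q-value. That ranking kept 2 genes over the whole window but exchanged abu-12 for abu-10. A region in both replicates was found at 8 genes in the full lists (48.6% of all coding genes), against 2. With 1 replicate left out, the counts ran from 2 to 3 (optimal list), from 8 to 9 (pooled list) and stayed at 2 upstream, and abu-10 was the gene added by replicate 1 alone. The distance to short RNA genes, the stricter overlap between replicates and the start of every transcript changed no count. Read depth is unknown, so a missing region was not told apart from one below detection, and intervals could not be given.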
